A study of Mus musculus with 20 samples.

Results

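The nuclear genes of oxidative phosphorylation were followed in SIMS cells, a ductal epithelial line from the mouse salivary gland, after disruption of Zcchc8. The genes were taken by symbol alone. They were the protein-coding genes of GENCODE M21 named Nduf, Uqcr, Cox4 to Cox8 or Atp5, and Sdha, Sdhb, Sdhc and Sdhd. This gave 94 of the 55471 genes in the count table, of which 21974 are protein-coding. By symbol, 38 belong to complex I, 8 are complex I assembly factors (the Ndufaf genes), 4 belong to complex II, 8 to complex III, 18 to complex IV and 18 to complex V. Ndufa4 is counted here with complex I by its symbol, although its protein is known as a subunit of complex IV.

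Total RNA was sequenced from 20 libraries in 5 groups of 4. The groups were unedited wild-type cells, a Btbd7 knockout (KO) that the series uses as its negative control, and Zcchc8 KO clones 1, 2 and 3. All edits were made with CRISPR/Cas9 in the same line, and all cells grew in DMEM with fetal bovine serum. Each Zcchc8 KO group is 1 clone. The labels do not say whether libraries of a group came from separate cultures, so p-values measure the spread between these libraries, which may be technical.

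Oxidative phosphorylation makes ATP in the inner mitochondrial membrane. Complexes I and II take electrons from NADH and succinate, complex III passes them to cytochrome c, and complex IV hands them to oxygen. The proton gradient built by complexes I, III and IV drives complex V, the ATP synthase. Most subunits are encoded in the nucleus and a small set in mitochondrial DNA. ZCCHC8 is the scaffold of the nuclear exosome targeting complex, which passes short nuclear RNAs to the exosome for decay. Among its known targets are PROMPTs, unstable transcripts that arise just upstream of active promoters, mostly in the direction away from the gene.

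Gene counts summed to between 6833258 and 17771804 per library. Wild-type replicate 1 stood apart: it had a count in 14245 genes, against 17442 to 20889 in the other libraries. Levels are given as CPM, counts scaled to the normalised library size. Mitochondrially encoded mRNAs made up 75569 CPM of that library and 42203 to 55080 CPM of the other 3 of wild type. Its level of genes under 1 kb of exon was lower than the wild-type mean by a median of 0.38 on the log2 scale (a difference of -0.38). The members are short, with a median exon length of 1559.5 bp against 4528 bp for all tested protein-coding genes, and 25 of the 94 are under 1 kb. The members summed to 4539 CPM there and to 4950 to 5507 CPM in wild-type replicates 2 to 4. Counts against wild type are therefore given with and without it, as are the differences of members described by name; where a difference has no second value in its own sentence, it follows at the end of the account of its complex. Its part in them beyond these values was not tested. Btbd7 transcript was 202 ± 7.64 CPM (SD, n = 4) in wild type and 99.2 ± 3.23 in Btbd7 KO. Zcchc8 transcript was 65.1 ± 2.92 in wild type, 60.3 ± 4.29 in clone 1, 23.3 ± 1.35 in clone 2 and 54.5 ± 4.83 in clone 3. Counts over the whole gene do not read an edit that leaves the transcript in place, and the difference of clone 1 from wild type in this transcript did not pass the test (-0.11, adjusted p = 0.291, edgeR quasi-likelihood test with Benjamini-Hochberg adjustment). Epithelial markers summed to between 2776 and 4635 CPM in every library, led by Krt7, and 3 of 7 were lower in the mean of the clones. Acinar markers were at 108 to 188 CPM, almost all Aqp5; 1 was tested and was lower, and the acinar genes Bpifa2, Muc19 and Smr3a had no count. Basal and myoepithelial markers were at 165 to 421 CPM, led by Krt14, with 1 of 3 tested higher and 1 lower. Fibroblast markers were at 10.2 to 35.2 CPM, with Lum at 0, and 1 of 3 tested was higher and 1 lower. Leukocyte markers stayed at or under 13.4 CPM, with 1 tested and higher, and endothelial markers, none of them tested, at or under 1.40 CPM. Their part in the results was not tested.

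Of the 94 members, 86 had enough counts to be tested. Among the other 8, 6 had no count in any library: Cox7b2, Cox6b2, Cox8b, Cox8c, Ndufa4l2 and a second gene model named Atp5o. Cox4i2 had 2 counts in all and Cox6a2 had 6. These are mostly the tissue-restricted forms of complex IV subunits, such as the testis, heart and muscle forms. Per kb of exon, Cox8a had the highest level in wild type, at 366.5 ± 74.0 CPM per kb (SD, n = 4). It was followed by Ndufa4 at 245.5 ± 30.3, Cox6b1 at 213.3 ± 27.7, Atp5b at 166.8 ± 6.16 and Cox7b at 122.4 ± 4.48. The intervals of 1 SD around the means of Ndufa4 and Cox6b1 overlapped. Among the tested members Cox7a1, the heart and muscle form of that subunit, was lowest at 0.858 CPM per kb.

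The summed level of all members was 4539 to 5507 CPM in wild type, 5293 to 5450 in Btbd7 KO, 4263 to 4584 in clone 1, 4432 to 4998 in clone 2 and 4409 to 4797 in clone 3. All 12 Zcchc8 KO libraries lay below all 4 Btbd7 KO libraries and overlapped wild type. Without wild-type replicate 1, clones 1 and 3 lay below the 3 remaining wild-type libraries and clone 2 still overlapped them. The sum of complex II was 341 to 372 CPM in wild type and 335.5 to 371 in clone 2, but 276 to 286 in clone 1 and 306 to 312 in clone 3. The libraries of clones 1 and 3 lay below all others. The complex V sum was 1732 to 1788 CPM in Btbd7 KO and at or under 1661 in every Zcchc8 KO library, with wild type between 1569 and 1881. The assembly factors summed to 96.8 to 101 CPM in Btbd7 KO, above all the other libraries, which lay at 59.2 to 88.0. In bulk RNA, fewer cells with a transcript and less of it per cell cannot be told apart.

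**Figure D1:**
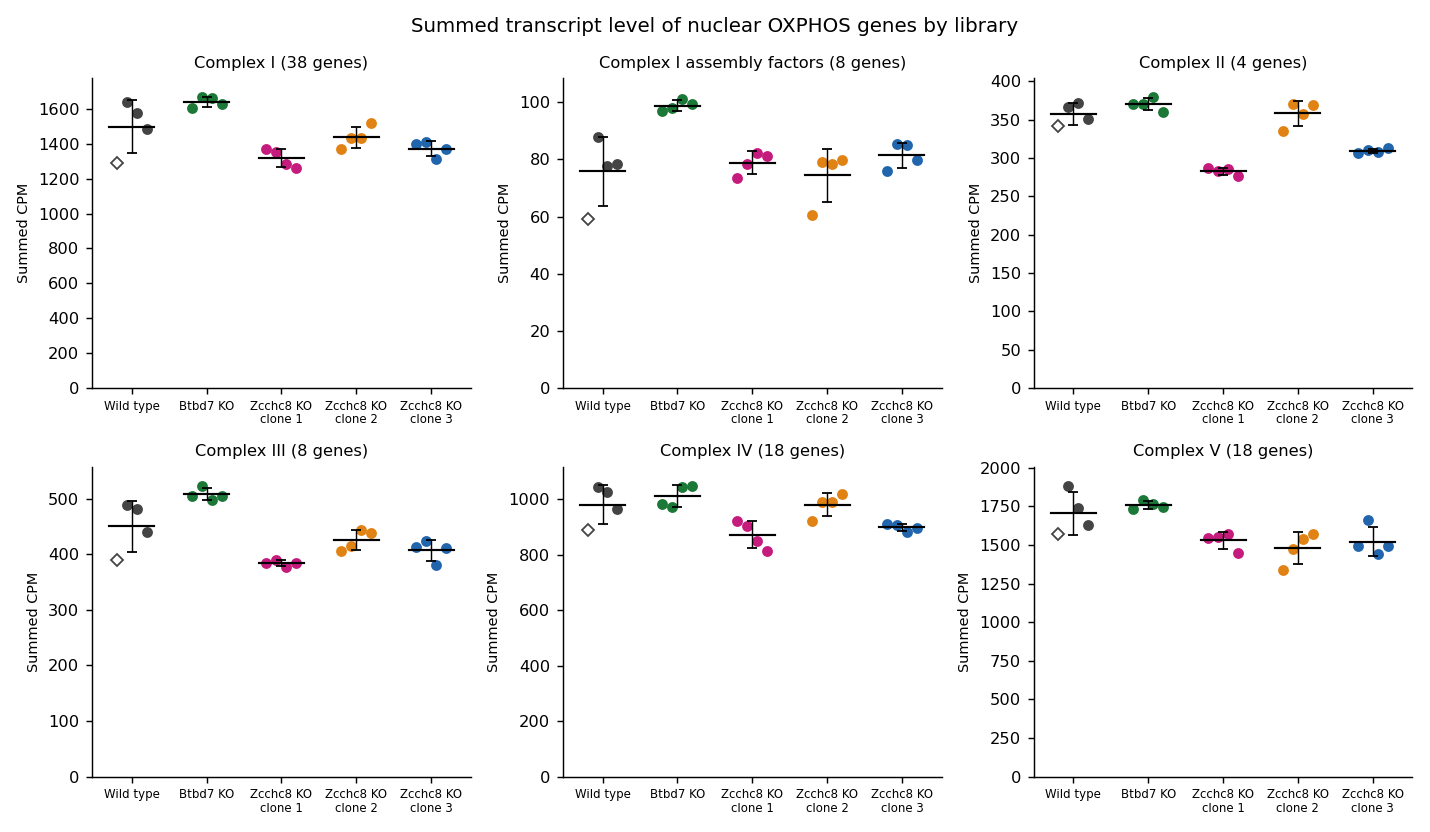
Summed level of the members of each complex in CPM (vertical axes, starting at 0) in each of 20 libraries by group (horizontal axes). Points are libraries, the open diamond is wild-type replicate 1, and lines and bars are the mean and SD of 4 libraries. In complex II the libraries of clone 1 (276 to 286 CPM) and clone 3 (306 to 312) lie below all others. In complex I the Btbd7 KO libraries lie above every Zcchc8 KO library.

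Averaged over the 3 Zcchc8 KO clones, 19 of the 86 tested members were lower than in wild type and 2 were higher (edgeR quasi-likelihood test, adjusted p under 0.05). The 19 are 22.1% of the members, where 19.9% of all 15297 tested genes and 25.4% of the protein-coding ones were lower. Higher calls were made for 16.2% of all genes and 11.8% of the protein-coding ones. The share of members called lower was thus close to that of genes at large. The median difference was -0.09 for the members, -0.0057 for all genes and -0.05 for protein-coding genes, on the log2 scale. Called lower were 6 of 37 tested complex I genes, none of the 8 assembly factors, 2 of 4 in complex II, 3 of 8 in complex III, 3 of 12 in complex IV and 5 of 17 in complex V. Without wild-type replicate 1, 30 members were lower, all 19 among them, and 1 was higher, against 18.7% and 17.5% of all genes and 24% and 13% of protein-coding genes. By complex, 12 of 37 in complex I, 1 of 8 assembly factors, 2 of 4, 3 of 8, 5 of 12 and 7 of 17 in complexes II to V were then lower. Without wild-type replicate 2, 17 were lower and 10 higher, against 19.6% and 17.1% of all genes. Ndufaf3 was the 1 higher call left without any 1 of 9 libraries: wild-type replicates 1 and 4, clone 1 replicates 1 and 2, clone 2 replicates 2, 3 and 4, and clone 3 replicates 1 and 2. With library totals alone as scaling the split was 14 lower and 4 higher, against 13.1% and 21.1% of all genes, and with scaling on protein-coding genes 16 and 4, against 15.3% and 19.5%. With each cell line as 1 replicate, the 3 clones were set against wild type and Btbd7 KO together, not wild type alone. No member was then called either way by edgeR. At an unadjusted p under 0.05 in that fit, 16 were lower and 0 higher. Of all genes 0.951% were called lower and 5.34% higher in that fit.

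**Figure D2:**
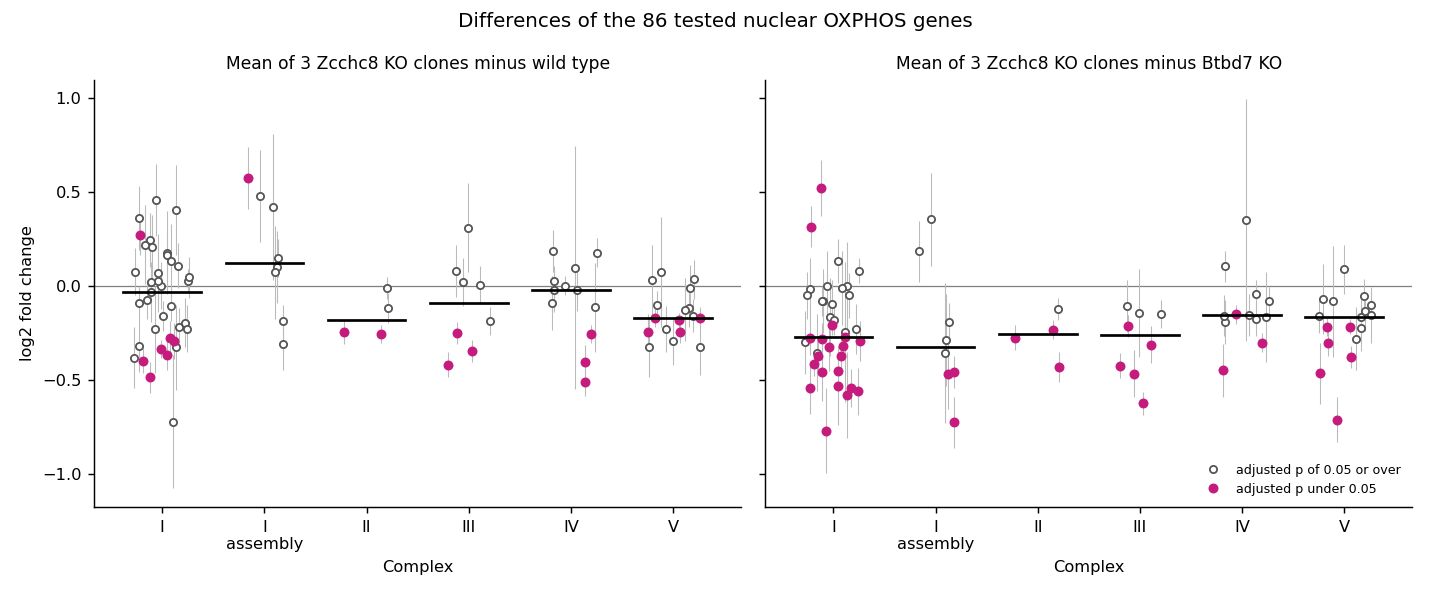
Log2 fold change (vertical axis) of each of the 86 tested members by complex (horizontal axis), for the mean of 3 Zcchc8 KO clones minus wild type (left) and minus Btbd7 KO (right). Grey bars are 1 standard error, black lines are medians and filled points have an adjusted p under 0.05. Against wild type 19 members are filled below 0, against Btbd7 KO 38.

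Across the 5 groups, 5 members had all 12 Zcchc8 KO libraries below all 8 control libraries, which is 5.81% against 2.39% of all tested genes. They were Ndufc2, Ndufs1, Uqcrq, Cox7b and Atp5b. None lay above all controls, where 4.62% of all genes did. The shares among protein-coding genes alone were not counted.

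In complex I, Ndufs1 encodes the largest subunit, which carries iron-sulfur clusters of the NADH-oxidising arm. The gene lies at chr1:63143596-63176833 on the minus strand of GRCm38. It had 134, 135, 123 and 128 CPM in wild type and 123, 121, 117 and 116 in Btbd7 KO. Clone 1 had 101, 108, 114 and 100, clone 2 had 96.8, 108, 99.5 and 108, and clone 3 had 97.5, 103, 106 and 95.5. No Zcchc8 KO library reached a control library. The mean of the clones fell by 0.34 on the log2 scale (-0.34, SE 0.05, adjusted p = 5.4e-06 in edgeR), and by 0.30 without wild-type replicate 1 (-0.30). Ndufb5, an accessory subunit of the membrane arm at chr3:32736990-32751566 on the plus strand, had the largest fall among the complex I members called with all libraries. It had 36.7 to 42.8 CPM in wild type, 31.5 to 36.6 in Btbd7 KO, 23.3 to 26.6 in clone 1, 26.0 to 35.2 in clone 2 and 25.3 to 34.3 in clone 3. The clones lay below wild type and overlapped Btbd7 KO, and the difference from wild type was -0.49 (SE 0.08, adjusted p = 4.5e-05, edgeR), and -0.50 without wild-type replicate 1. Of its exonic 50-base stretches, 11.2% also occur in Mrpl47, its head-to-head neighbour, so its counts are uncertain to that extent.

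Ndufa4 had 392, 293, 326 and 346 CPM in wild type and 345, 342, 330 and 354 in Btbd7 KO. It had 226, 222, 227 and 243 in clone 1, 321, 269, 240 and 280 in clone 2, and 290, 231, 260 and 290 in clone 3. Clones 1 and 3 lay below all controls, whereas the highest library of clone 2 lay above the lowest of wild type. The mean fell by 0.40 (-0.40, SE 0.07, adjusted p = 4.69e-05, edgeR), and by 0.30 without wild-type replicate 1 (-0.30), and the clones differed from each other (adjusted p = 0.0357). Its isoform partner Ndufa4l2, known as a low-oxygen form, had no count. Ndufc2, an accessory subunit, had 45.6 to 64.8 CPM in wild type, 52.7 to 57.9 in Btbd7 KO and 36.5 to 45.2 across the clones. Its mean difference was -0.37 (SE 0.08, adjusted p = 0.000464, edgeR), and -0.23 without wild-type replicate 1, its highest library. Ndufa6 was the only complex I gene called higher in the mean of the clones against wild type, at 21.9, 35.2, 36.6 and 28.03 CPM in wild type and 27.8 to 44.5 across the clones. These ranges overlapped. Its difference of 0.27 (SE 0.11, adjusted p = 0.049, edgeR) became 0.16 with an adjusted p of 0.162 without wild-type replicate 1. The call was lost without any 1 of the same 9 libraries, with values between 0.16 and 0.29. Among the assembly factors, Ndufaf3 was called higher. It had 4.29 to 8.15 CPM in wild type, 6.33 to 9.97 in Btbd7 KO and 6.72 to 10.3 across the clones. The difference was 0.58 (SE 0.16, adjusted p = 0.00746, edgeR), and 0.47 without wild-type replicate 1.

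Complex II, succinate dehydrogenase, is encoded by nuclear genes alone and is also an enzyme of the tricarboxylic acid cycle. Sdha, the flavoprotein that oxidises succinate, lies at chr13:74322254-74350280 on the minus strand. It had 173, 205, 203 and 192 CPM in wild type, and 190, 197, 198 and 176 in Btbd7 KO. Clone 1 had 134, 144, 127 and 136, clone 3 had 154, 161, 152 and 161, and clone 2 had 185, 204, 206 and 203. Clones 1 and 3 lay below all the other libraries, and clone 2 lay within the range of the controls but for 1 library. Against wild type, Sdha fell by 0.51 in clone 1 (-0.51, SE 0.06, adjusted p = 4.31e-07, edgeR) and by 0.30 in clone 3 (-0.30, SE 0.06, adjusted p = 0.000503). In clone 2 the difference was 0.05 (adjusted p = 0.601). These were -0.54, -0.34 and 0.0238 in clones 1, 3 and 2 without wild-type replicate 1. The test of a difference among the clones gave an adjusted p of 3.36e-07, the lowest of the members.

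Sdhc, a membrane anchor at chr1:171127165-171150603, had 50.9 to 60.6 CPM in wild type, 37.6 to 50.7 in clone 1, 49.3 to 51.1 in clone 2 and 42.2 to 48.0 in clone 3. Clones 1 and 3 lay below wild type and clone 2 overlapped its lower end. The mean difference was -0.24 (SE 0.06, adjusted p = 0.00456, edgeR), and -0.17 without wild-type replicate 1. Sdhb, the iron-sulfur subunit, had 30.1 to 37.6 CPM in wild type, 39.3 to 45.6 in Btbd7 KO and 24.7 to 37.7 across the clones. It did not pass the test against wild type (-0.11, SE 0.08, adjusted p = 0.282), and it was higher in Btbd7 KO than in wild type (0.32, SE 0.10, adjusted p = 0.0272, edgeR). Sdhd, the other anchor, had 70.2 to 77.7 CPM in wild type and 67.8 to 86.6 across the clones, with a difference of -0.0092 (SE 0.06, adjusted p = 0.923). The sign of that last difference turned in several other settings. The differences were -0.0521 for Sdhb and -0.0186 for Sdhd without wild-type replicate 1, and 0.37 for Sdhb in Btbd7 KO.

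In complex III, Uqcrb and Uqcrq encode small subunits near the quinone-binding site and Uqcrc2 a core subunit. Uqcrb had 74.3, 69.4, 85.0 and 74.3 CPM in wild type and 67.5, 79.9, 72.0 and 84.3 in Btbd7 KO. It had 46.6 to 55.7 in clone 1, 59.7 to 69.4 in clone 2 and 50.4 to 59.4 in clone 3. Clones 1 and 3 lay below all controls, and clone 2 overlapped their lower end. The mean fell by 0.42 (-0.42, SE 0.07, adjusted p = 2.24e-05, edgeR); 25.5% of its exonic 50-base stretches occur in other genes, mostly pseudogenes. Uqcrq, at chr11:53427922-53430831, had 65.8, 69.8, 59.1 and 61.0 CPM in wild type and 74.9, 74.3, 77.8 and 83.4 in Btbd7 KO. The clones had 44.6 to 51.2, 45.8 to 50.8 and 49.9 to 58.9. Its 3 levels were thus ordered, with Btbd7 KO above wild type (0.28, SE 0.07, adjusted p = 0.0098, edgeR) and the clones below it (-0.35, SE 0.06, adjusted p = 6.5e-05). Uqcrc2 had 72.1 to 83.0 CPM in wild type, 71.1 to 78.6 in Btbd7 KO and 58.1 to 72.2 across the clones. Its difference was -0.25 (SE 0.06, adjusted p = 0.00146, edgeR), with 17.6% of its 50-base stretches shared with the overlapping gene Pdzd9.

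Uqcrfs1, the Rieske iron-sulfur protein, had 54.4 to 70.2 CPM in wild type and 56.5 to 68.5 in Btbd7 KO. It had 45.9 to 54.2 in clone 1, 65.2 to 71.6 in clone 2 and 42.2 to 58.1 in clone 3. Clone 1 lay below the controls and clone 2 at their upper end. Its differences were -0.34 in clone 1, 0.10 in clone 2 and -0.32 in clone 3, and the test among the clones gave an adjusted p of 0.000539 (edgeR). For the mean the adjusted p was 0.0505; the call was made without wild-type replicate 4 (-0.24) or clone 3 replicate 4 (-0.21). It differed by -0.28, 0.17 and -0.27 in clones 1, 2 and 3 without wild-type replicate 1. In that fit the mean differences were -0.41 for Uqcrb, -0.31 for Uqcrq and -0.18 for Uqcrc2, all still called, and Uqcrq was 0.30 higher in Btbd7 KO.

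In complex IV, Cox6c, an accessory subunit at chr15:35925886-35938246, had the largest fall among the members called with all libraries. It had 165, 134, 129 and 127 CPM in wild type, 108, 97.8, 97.1 and 92.1 in clone 1, 88.0, 124, 107 and 126 in clone 2, and 80.9, 90.9, 85.0 and 77.3 in clone 3. All 12 libraries lay below wild type. Its difference was -0.51 (SE 0.07, adjusted p = 5.17e-06, edgeR) and -0.40 without wild-type replicate 1. Btbd7 KO was also lower, at 103, 99.7, 101 and 97.5 CPM, a difference of -0.47 (SE 0.09, adjusted p = 0.000741). Against Btbd7 KO the clones differed by -0.04 (SE 0.08, adjusted p = 0.681), with both kinds of edited cells below wild type. Cox7b, at chrX:106015700-106022450, had 143 to 154 CPM in wild type, 143 to 167 in Btbd7 KO and 117 to 136 across the clones. No Zcchc8 KO library reached a control, and the difference was -0.25 (SE 0.05, adjusted p = 0.00022, edgeR). Cox6b1, a subunit at the dimer interface of complex IV, had 179, 141, 148 and 135 CPM in wild type, 114 to 140 in Btbd7 KO and 94.5 to 142 across the clones. The clones fell by 0.40 against wild type (-0.40, SE 0.09, adjusted p = 0.000679, edgeR), but overlapped both control groups. With wild-type replicate 1 left out, the differences were -0.22 for Cox7b and -0.29 for Cox6b1, both still called, and -0.37 for Cox6c in Btbd7 KO.

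The other complex IV subunits did not pass the test for the mean of the clones with all libraries. Cox7a2 and Cox5b did without wild-type replicate 1. Cox5b, chosen here after its values were seen, went from -0.0191 (adjusted p = 0.921) to -0.19 (adjusted p = 0.0321, edgeR). Cox4i1 had 89.0 to 102 CPM in wild type and 90.6 to 106 across the clones, a difference of 0.0029 (SE 0.05). Cox8a had 159, 254, 256 and 238 CPM in wild type, 216 to 243 in clone 1, 282 to 296 in clone 2 and 235 to 270 in clone 3. Clone 2 lay above all wild-type libraries and rose by 0.35 (SE 0.09, adjusted p = 0.00547, edgeR), and the clones differed (adjusted p = 0.0193). Cox6a1 followed the same order, with 38.2, 79.6, 72.2 and 58.6 CPM in wild type, 51.3 to 63.3 in clone 1, 77.3 to 90.3 in clone 2 and 67.4 to 81.8 in clone 3. Clone 2 overlapped wild type at 1 library and rose by 0.46 (SE 0.13, adjusted p = 0.00952). In both genes the lowest wild-type library was replicate 1; without it the rise in clone 2 was 0.24 for Cox8a (adjusted p = 0.000684) and 0.31 for Cox6a1 (adjusted p = 0.0038, edgeR). Cox7a2 had 4.55 CPM in that library and 17.4 to 27.7 in the other 3, with 13.2 to 23.2 across the clones. Its difference was -0.11 (adjusted p = 0.752), and -0.41 without wild-type replicate 1 (adjusted p = 0.0107, edgeR). Cox7a2l, a relative known from supercomplexes, differed by 0.03 (SE 0.08) and Cox7a1 by 0.10 (SE 0.65), the latter at 0 to 1.38 CPM per library. The values without that library were 0.0408 for Cox7a2l, -0.29 for Cox7a1 and -0.0201 for Cox4i1, none called.

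In complex V, Atp5b encodes the catalytic beta subunit and Atp5a1 the alpha subunit beside it. Atp5b, at chr10:128083273-128090391, had 684, 743, 706 and 694 CPM in wild type and 711, 732, 726 and 726 in Btbd7 KO. It had 597 to 632 in clone 1, 582 to 680 in clone 2 and 584 to 651 in clone 3. The groups did not overlap, and the mean fell by 0.18 (-0.18, SE 0.04, adjusted p = 0.000869, edgeR). Atp5a1 had 252, 317, 270 and 237 CPM in wild type, 298, 306, 290 and 283 in Btbd7 KO, 259, 257, 253 and 228 in clone 1, and 263, 276, 244 and 248 in clone 3. Clone 2 had 166, 184, 191 and 183, below every other library. The fall was 0.57 in clone 2 (-0.57, SE 0.07, adjusted p = 1.1e-06, edgeR), with -0.11 in clone 1 and -0.06 in clone 3, neither called. The clones differed with an adjusted p of 6.74e-06. Alpha and beta subunits stand in equal number in the enzyme, and in clone 2 the difference of Atp5b was -0.15 (SE 0.05), beside -0.57 for Atp5a1; the gap between both genes was not tested. With wild-type replicate 1 left out, Atp5b differed by -0.18 for the mean and -0.14 in clone 2, and Atp5a1 by -0.12, -0.57 and -0.0851 in clones 1, 2 and 3.

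Atp5g1, Atp5g2 and Atp5g3 encode one and the same mature subunit c, the ring that turns with the proton flow. Atp5g3 had 115 to 125 CPM in wild type, 118 to 129 in clone 1, 92.3 to 109 in clone 2 and 96.3 to 106 in clone 3. Clones 2 and 3 lay below wild type and clone 1 overlapped it. The differences were 0.0058, -0.24 and -0.27, and the clones differed with an adjusted p of 0.00135 (edgeR). The mean difference of -0.17 (SE 0.05, adjusted p = 0.00774) was not called without wild-type replicate 4 (-0.14); without wild-type replicate 1 it was -0.15. Atp5g1 had 12.96 to 18.7 CPM in wild type, 22.3 to 25.8 in Btbd7 KO and 10.2 to 19.6 across the clones; it rose in Btbd7 KO by 0.48 (SE 0.15, adjusted p = 0.0264, edgeR), and by 0.52 without wild-type replicate 1. Atp5g2 had 5.85 CPM in wild-type replicate 1 and 12.2 to 13.2 in the other 3, with 7.77 to 9.27 in clone 1, 10.0 to 13.4 in clone 2 and 6.19 to 8.16 in clone 3. Its mean difference was -0.32 (adjusted p = 0.121), and -0.51 without wild-type replicate 1 (adjusted p = 0.00185, edgeR). Since 38.4% of its 50-base stretches occur in other genes, mainly the pseudogene Gm10175, its counts are uncertain. Atp5f1, a peripheral stalk subunit that overlaps Wdr77, had a mean difference of -0.24 (SE 0.09, adjusted p = 0.0416, edgeR). It was not called in 15 of the 20 fits that left out a library, where values lay between -0.35 and -0.15 over all 20, and the call without wild-type replicate 1 (-0.35) had an adjusted p of 0.000112.

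**Figure D3:**
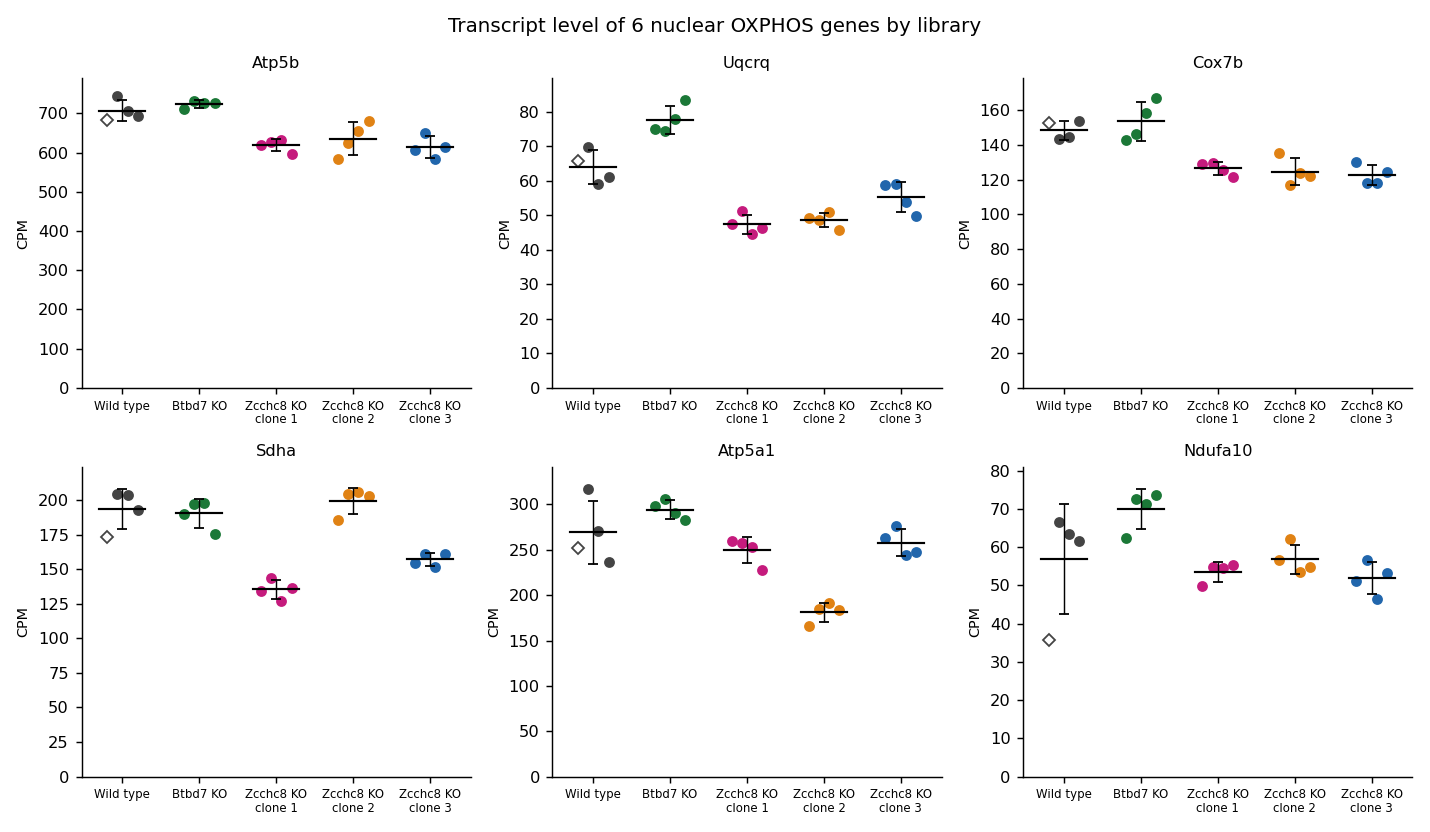
Level in CPM (vertical axes, starting at 0) of 6 members in each of 20 libraries by group (horizontal axes). Points are libraries, the open diamond is wild-type replicate 1, and lines and bars are the mean and SD of 4 libraries. Atp5b, Uqcrq and Cox7b have all Zcchc8 KO libraries below all controls. Sdha is low in clones 1 and 3 (127 to 161 CPM), Atp5a1 in clone 2 (166 to 191), and Ndufa10 shows wild-type replicate 1 at 35.6 CPM.

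The clones were also each set against wild type. Clone 1 had 21 members lower and 1 higher than wild type (19.1% and 16.7% of all genes were called). Clone 2 had 13 lower and 4 higher (16.2% and 16.1%), and clone 3 had 21 lower and 1 higher (15.3% and 14%). The split moved with the scaling. With library totals alone it was 15 lower and 3 higher in clone 1 (14% and 20.4% of all genes), 7 and 7 in clone 2 (10.6% and 20.7%), and 15 and 3 in clone 3 (10.1% and 18.1%). With DESeq2 it was 16 and 3 in clone 1 (16.3% and 20.4%) and 13 and 7 in clone 2 (14.9% and 18.8%). With scaling on protein-coding genes it was 16 and 4 in clone 1 (14.5% and 20%) and 10 and 6 in clone 2 (13.3% and 18%). Without wild-type replicate 1 the counts were 31 lower and 1 higher in clone 1 (19.4% and 19.3% of all genes), 14 and 4 in clone 2 (15.5% and 18.4%) and 25 and 1 in clone 3 (16.1% and 15.6%). Without wild-type replicate 2, 5, 10 and 7 members were higher in clones 1, 2 and 3, against 17.4%, 17% and 15.2% of all genes. Without clone 2 replicate 1, 8 were lower in clone 2, against 13.9%. In clone 1, the 1 higher call became 3 without wild-type replicate 3 and 0 without wild-type replicate 4. It became 2 without clone 1 replicate 3, clone 2 replicate 1 or clone 3 replicate 2. A joint test found 18 of 86 members to differ among the clones (edgeR, adjusted p under 0.05), where 28.5% of all genes differed. By complex these were 4 of 37 in complex I, none of 8 assembly factors, 1 of 4, 2 of 8, 4 of 12 and 7 of 17 in complexes II to V. Without wild-type replicate 1 the number was 27, against 38.6% of all genes. In both fits the share of members that differed among the clones was below that of genes at large.

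Btbd7 KO, the negative control, had 4 members higher than wild type (Sdhb, Uqcr10, Uqcrq and Atp5g1) and 1 lower (Cox6c). Over all genes 7.73% were higher and 8% lower. Its median difference was 0.15, and 66 of the 86 estimates were above 0. At an unadjusted p under 0.05, 23 members were higher and 4 lower. Uqcr10, a small subunit of complex III, had the largest called rise, at 16.0, 33.6, 34.4 and 38.35 CPM in wild type and 46.6, 44.5, 38.34 and 41.9 in Btbd7 KO. The highest wild-type library and the lowest of Btbd7 KO had the same level within rounding, and the difference was 0.49 (SE 0.15, adjusted p = 0.0315, edgeR), or 0.29 without wild-type replicate 1. Without that library 5 members were higher and 1 lower, against 8.93% and 8.23% of all genes, and the median was 0.07. Without wild-type replicate 2, 21 were higher and 2 lower, against 10.1% and 10.2% of all genes. Without wild-type replicate 3, 8 were higher, against 8.32%, and without Btbd7 KO replicate 4, 1 was, against 6.06%.

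Set against Btbd7 KO in place of wild type, the mean of the clones was lower for 38 members, or 44.2%, and higher for 2 (Ndufa6 and Ndufb2). Of all genes 22.2% were lower and 18.8% higher, and of protein-coding genes 28.7% and 14.9%. The median was -0.22, and 77 of the 86 estimates were below 0. Lower were 18 of 37 in complex I, 3 of 8 assembly factors, 3 of 4 in complex II, 5 of 8 in complex III, 3 of 12 in complex IV and 6 of 17 in complex V. With wild-type replicate 1 out of the joint fit, 42 were lower and 2 higher, against 25.1% and 23.8% of all genes. Both comparisons use the same Zcchc8 KO libraries, so their values are given side by side. Uqcrq had the lowest adjusted p of the 86, at -0.62 against Btbd7 KO (SE 0.06, adjusted p = 5.4e-09, edgeR) beside -0.35 against wild type. Sdhb had -0.43 beside -0.11, Atp5g1 -0.71 beside -0.23, and Ndufa10 -0.37 beside -0.07. For Cox6c the order was the other way, with -0.04 beside -0.51.

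PROMPT regions are named in the deposited table by the gene they belong to, and 68 members had enough counts there to be tested. Their counts come from 19 libraries, since wild-type replicate 1 is not used in that table. How far upstream a region reaches is not given in the sources used here. The promoters of the 3 members whose PROMPT regions had the highest fitted change are shown first. The stretches run from the upstream end of the RefSeq window (GRCm38.p6) to the base before the outermost GENCODE start, 5′ to 3′ on the strand of the gene, which is the minus strand for all 3. Capitals mark a match to the motif of NRF1, a regulator of nuclear mitochondrial genes.
Ndufs5, chr4:123718203-123718436: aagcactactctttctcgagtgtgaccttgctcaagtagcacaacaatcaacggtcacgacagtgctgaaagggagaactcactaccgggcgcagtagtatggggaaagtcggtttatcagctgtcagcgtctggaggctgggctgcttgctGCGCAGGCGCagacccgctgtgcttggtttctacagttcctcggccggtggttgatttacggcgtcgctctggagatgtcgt
Atp5k, chr5:108434449-108434649: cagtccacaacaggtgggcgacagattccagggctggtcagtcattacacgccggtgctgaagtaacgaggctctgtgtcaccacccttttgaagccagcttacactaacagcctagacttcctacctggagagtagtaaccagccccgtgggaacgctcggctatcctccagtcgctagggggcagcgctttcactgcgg
Ndufa10, chr1:92473861-92474008: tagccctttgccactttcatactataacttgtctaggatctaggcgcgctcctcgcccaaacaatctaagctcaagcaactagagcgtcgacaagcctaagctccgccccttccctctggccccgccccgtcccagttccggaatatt

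The ETS factor GABPA and YY1 are further known regulators of nuclear mitochondrial genes. Promoter windows of 300 bases (250 before the RefSeq start and 50 after it) were found for 74 of the 93 distinct symbols, in 79 windows. The NRF1 motif searched has the letters in capitals in the Ndufs5 stretch, with any base in the sixth place. A window that holds 2 motifs counts for both. On either strand it occurred in 20 windows, or 25.3%, against 4.6% of all 32851 windows. AAGATGGC (YY1) occurred in 10, or 12.7%, against 2.75%. CCGGAAGT (ETS) occurred in 5, or 6.33%, against 3.89%. At least 1 of the 3 was present in 41.8% of the member windows and 10.4% of all windows. In the Ndufs5 window the NRF1 motif lies 98 to 89 bases before the RefSeq start (-98 to -89). In the Atp5k window it lies at -50 to -41, across the end of the stretch printed here. The Ndufa10 window holds none of the 3 letter strings.

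PROMPT regions of 35 of the 68 members were higher in the mean of the Zcchc8 KO clones than in wild type, and 5 were lower (edgeR quasi-likelihood test, adjusted p under 0.05). The 35 include Ndufs5, Atp5k and Ndufa10, which had no wild-type count. These 3, like Sdhc and Uqcrfs1, met the count filter through the clones alone. How many others did so was not counted, and the same filter applied to all regions. The 35 are 51.5%, against 39.9% of all 17655 tested regions and 57.9% of those of protein-coding genes. The 5 are 7.35%, against 3.31% and 2.09%. The median difference was 0.76, against 0.45 for all regions and 1.23 for those of protein-coding genes. Scaling within the PROMPT table moved the median of all regions to 0.0153 and that of the members to 0.30, and 13 member regions were then lower (21.9% of all regions). Higher were 15 of 26 in complex I, 1 of 6 assembly factors, 1 of 3 in complex II, 4 of 7 in complex III, 6 of 10 in complex IV and 8 of 16 in complex V. In clones 1, 2 and 3 the counts were 35, 31 and 34 higher (39.3%, 36% and 36.7% of all regions) and 6, 6 and 2 lower (3.79%, 3.09% and 2.41%). The clones share the wild-type libraries. Among the clones, 4 regions differed, against 10.9% of all regions. In Btbd7 KO none was higher than wild type and 1 was lower by edgeR, against 1.35% and 1.68% of all regions. At an unadjusted p under 0.05 these were 3 and 4, and DESeq2 gave the same unadjusted numbers. The lower one was that of Atp5j2. No region was called lower without wild-type replicate 4, Btbd7 KO replicate 3 or Btbd7 KO replicate 4, and 2 were without wild-type replicate 2 or clone 3 replicate 2. Against Btbd7 KO, the clones had 42 regions higher and 2 lower (45.6% and 5.77% of all).

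The regions of Ndufs5, Atp5k and Ndufa10 had no count in any wild-type library. Ndufs5, an accessory subunit of complex I, had 5, 3, 5 and 2 PROMPT counts in clone 1, 3, 6, 9 and 18 in clone 2, and 7, 8, 2 and 11 in clone 3, with 0 in all Btbd7 KO libraries. Atp5k, the small subunit e of complex V, had 10, 7, 5 and 2, then 2, 11, 6 and 4, then 5, 4, 8 and 8. Ndufa10, another complex I subunit, had 15, 7, 1 and 3, then 7, 2, 3 and 2, then 14, 3, 4 and 6. Each had a count in all 12 Zcchc8 KO libraries, and the last pair had 1 count each in Btbd7 KO. Against a floor of 3 counts over the 3 wild-type libraries, the clone means were at least 9.58-fold higher for Ndufs5, at least 9.83-fold for Atp5k and at least 9.56-fold for Ndufa10. These regions were picked for their fitted change and met the count filter through the clones alone, so the values are a description with no test. The Ndufs5 region passed the count filter in 12 of the 19 fits that left out a library. Their own genes were not called. Ndufs5 had 2.86 to 3.96 CPM in wild type, 4.22 to 5.83 in Btbd7 KO and 1.27 to 4.02 across the clones (-0.23, SE 0.23, adjusted p = 0.474, edgeR). Of the exonic 50-base stretches of Ndufs5, 21.7% also occur in BC002163, so its gene counts are uncertain to that extent. Atp5k had 3.77 to 14.3 CPM in wild type and 3.82 to 13.1 across the clones (0.07, SE 0.29). Ndufa10 had 35.6 to 66.7 CPM in wild type and 46.5 to 62.1 across the clones (-0.07, SE 0.10); without wild-type replicate 1 it was lower, at -0.23 (adjusted p = 0.0059), with -0.29 for Ndufs5 and -0.11 for Atp5k, neither called.

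The region of Sdhc was read at more depth. It had 0.404, 0.295 and 0.291 CPM in wild type, 0 to 0.419 in Btbd7 KO, 5.85 to 8.39 in clone 1, 3.88 to 8.08 in clone 2 and 2.63 to 6.90 in clone 3. All 12 Zcchc8 KO libraries lay above all controls, with a fitted mean change of 4.18 (SE 0.37). The share of all PROMPT regions so placed is not given here. The Sdhc gene itself fell by 0.24 (-0.24). The region of Uqcrfs1 had a fitted change of 4.34 (SE 0.60), from 0.0577 to 0.148 CPM in wild type to 1.31 to 3.81 across the clones. Its size rests on few wild-type reads. The values in clones 1, 2 and 3 were 4.36, 4.38 and 4.28, beside -0.34, 0.10 and -0.32 for the gene. The regions of Sdhc and Uqcrfs1 also met the count filter through the clones alone, so their values are a description with no test.

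**Figure D4:**
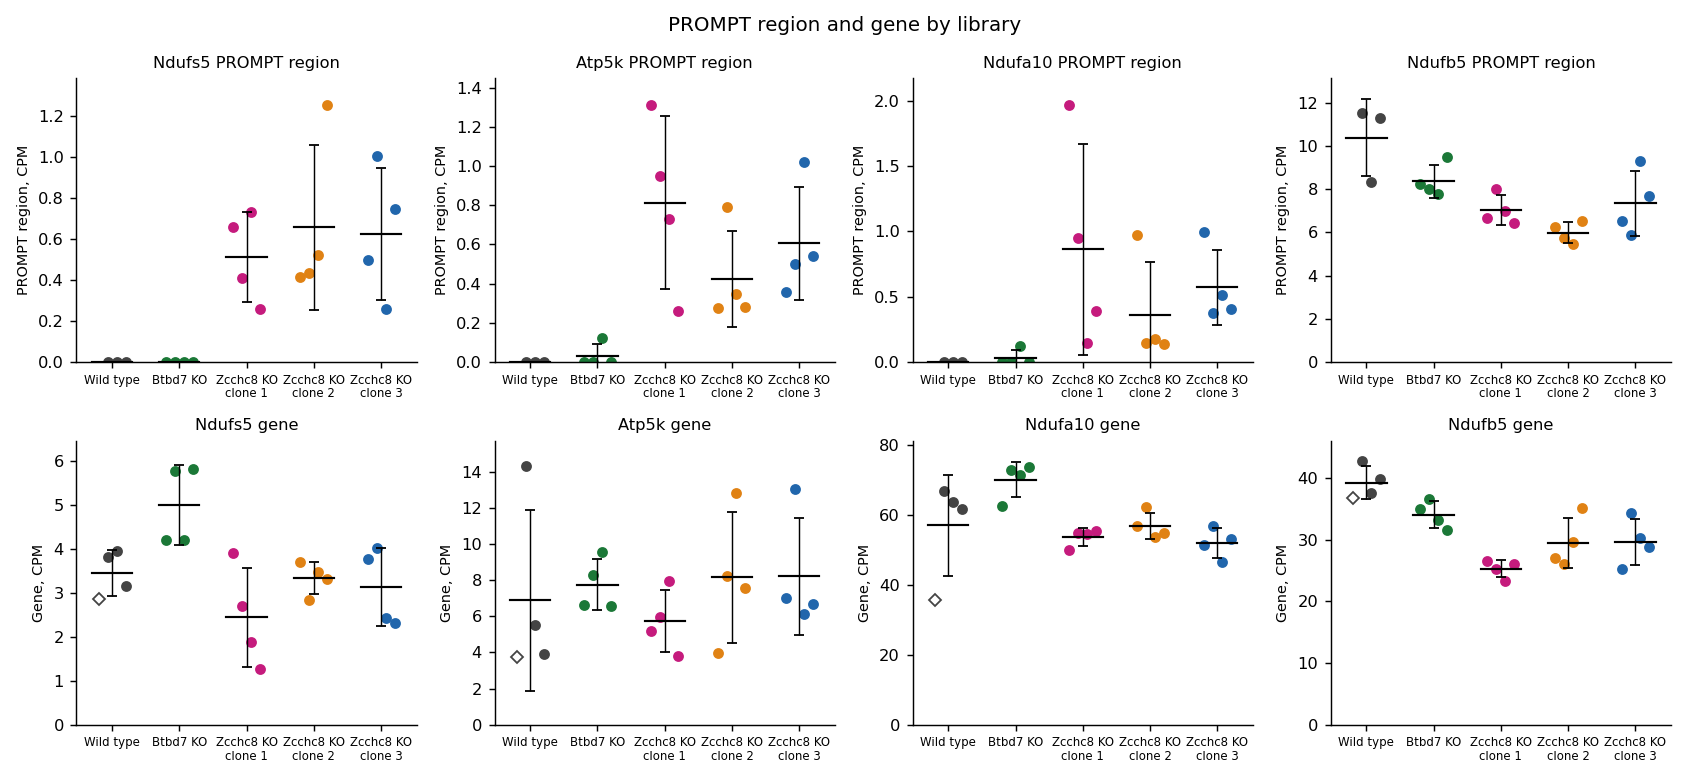
PROMPT region (top) and gene (bottom) of Ndufs5, Atp5k, Ndufa10 and Ndufb5 in CPM (vertical axes, starting at 0) by library and group (horizontal axes). Points are libraries, the open diamond is wild-type replicate 1 (genes only), and lines and bars are the mean and SD. The first 3 regions are at 0 in wild type and above 0 in all 12 Zcchc8 KO libraries, while their genes overlap between groups. The Ndufb5 region and gene are both lower in the clones.

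The 5 regions that fell were those of Ndufb5, Atp5f1, Ndufs1, the assembly factor Ndufaf7 and the second Atp5o model. The Ndufb5 region had 11.5, 8.35 and 11.3 CPM in wild type, 7.77 to 9.48 in Btbd7 KO, 6.45 to 8.03 in clone 1, 5.45 to 6.55 in clone 2 and 5.89 to 9.32 in clone 3. Clones 1 and 2 lay below wild type, and 1 library of clone 3 overlapped it. The difference was -0.63 (SE 0.15, adjusted p = 0.000435, edgeR). The Atp5f1 region had 15.1 to 17.8 CPM in wild type, 8.57 to 11.1 in clone 1, 9.56 to 11.5 in clone 2 and 14.1 to 18.7 in clone 3. Clones 1 and 2 lay below all controls and clone 3 overlapped them. The mean difference was -0.49 (SE 0.12, adjusted p = 0.000473, edgeR). Each of the 5 has another annotated gene at or within 500 bp of its start: Mrpl47 for Ndufb5, Gm42890 for Atp5f1, Eef1b2 for Ndufs1, Cebpz for Ndufaf7 and Atp5o itself for the second model. The Ndufs1 region had 130.5 to 163 CPM in wild type, a level like that of the gene itself (123 to 135). Whether reads of a neighbour enter these regions was not tested. Without wild-type replicate 2, 3 regions were lower, against 2.55% of all.

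Members were therefore also split by the nearest annotated gene upstream. With no gene within 5 kb, 13 of 17 regions were higher and none lower, with a median of 2.97. Of the regions of all protein-coding genes so placed, 80.4% were higher and 0.151% lower, with a median of 2.49. With the nearest gene at 500 bp to 5 kb, 7 of 11 were higher and none lower, with a median of 1.09, where protein-coding genes at large had 51.2%, 2.22% and 0.82. With a gene within 500 bp, 15 of 40 (37.5%) were higher and 5 (12.5%) lower, with a median of 0.39, where protein-coding genes at large had 42.9%, 3.58% and 0.42. In Btbd7 KO the medians of these sets were 0.01, 0.04 and -0.13. The order of the 3 classes was thus the same in the members and in protein-coding genes at large, and no test of it was made. In the class with no gene within 5 kb, Ndufs5, Atp5k and Uqcrfs1 met the count filter through the clones alone. Ndufa10 and Sdhc did so in the other classes. How many more did was not counted, so the calls and medians by class are a description. Of the 3 regions without a wild-type count, 2 had no gene within 5 kb and 1 had a gene within 5 kb. With these 3 at their lower bound, the median stayed at 2.97 with no gene within 5 kb. It stayed at 0.42 with any gene within 5 kb and at 0.76 over all 68.

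**Figure D5:**
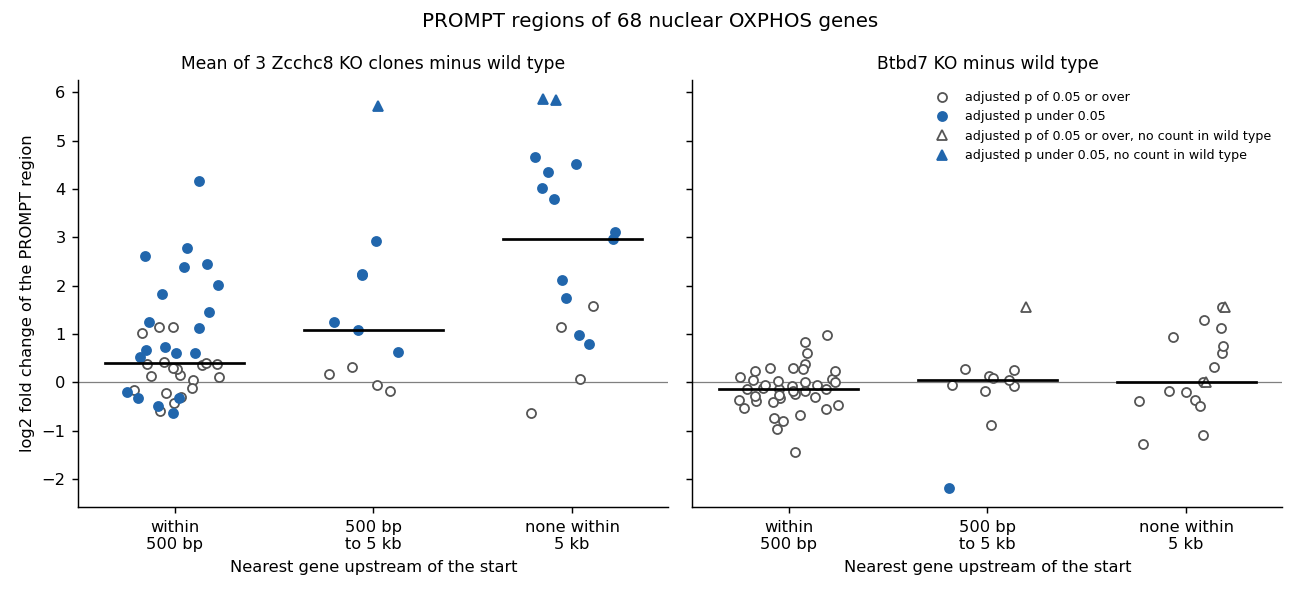
Log2 fold change of the PROMPT region (vertical axis) of 68 members by the distance of the nearest gene upstream (horizontal axis), for the mean of 3 Zcchc8 KO clones (left) and Btbd7 KO (right) minus wild type. Filled points have an adjusted p under 0.05, triangles have no count in wild type, so that their fitted height depends on the prior count, and black lines are medians. Medians on the left are 0.39, 1.09 and 2.97, and on the right -0.13, 0.04 and 0.01.

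Within a library, the log2 ratio of PROMPT to gene level had a median over 66 members of -4.11 ± 0.07 in wild type (SD, n = 3) and -4.37 ± 0.24 in Btbd7 KO (n = 4). It was -2.48 ± 0.06, -2.81 ± 0.09 and -2.68 ± 0.06 in clones 1, 2 and 3. All 12 Zcchc8 KO libraries lay above all 7 controls. In the 16 members with no gene within 5 kb it was -7.24 ± 0.38 in wild type and -3.30 ± 0.19, -4.11 ± 0.44 and -3.80 ± 0.40 in the clones. The ratio is given for members alone, so it does not set them apart from other genes. Across the table, 57.9% of PROMPT regions of protein-coding genes were higher in the mean of the clones. The 66 members include Ndufs5, Atp5k and Ndufa10, whose regions had no wild-type count.

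Other genes of the pathway were counted from lists. The tricarboxylic acid cycle and pyruvate dehydrogenase, which supply NADH and succinate, had 8 of 16 genes lower and none higher in the mean of the clones against wild type (median -0.20). Without wild-type replicate 1 it had 10 lower and none higher, and against Btbd7 KO 11 lower and 1 higher. Of protein-coding genes 25.4% were lower and 11.8% higher against wild type, and 24% and 13% without wild-type replicate 1. Against Btbd7 KO 28.7% of protein-coding genes were lower and 14.9% higher, or 22.2% and 18.8% of all genes. The 8 genes lower against wild type were Cs, Idh3a, Idh3g, Ogdh, Suclg2, Fh1, Pdha1 and Dlat. Pdha1, the E1 alpha subunit of pyruvate dehydrogenase, had -0.53 (SE 0.06, adjusted p = 1.6e-07, edgeR), and it was lower in Btbd7 KO as well (-0.42). Citrate synthase (Cs) had -0.23 (SE 0.04, adjusted p = 0.000152). The values without wild-type replicate 1 were -0.41 for Pdha1 and -0.19 for Cs. Glycolysis had 5 of 15 genes higher (Gpi1, Pfkl, Aldoa, Aldoc and Pgk1) and 1 lower (Pfkp), with a median of 0.05. Leaving out wild-type replicate 1 gave 5 higher and 2 lower. Aldoc had the largest called rise, at 0.98 (SE 0.20, adjusted p = 0.000484, edgeR), and 0.94 without that library.

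Among factors that build the complexes, Acad9, a complex I assembly factor outside the Ndufaf names, had -0.65 (SE 0.10, adjusted p = 1.39e-05, edgeR), and -0.69 without wild-type replicate 1. In its list of 7, 2 were higher and 1 lower in both fits. Cyc1, the cytochrome c1 of complex III, had -0.28 (SE 0.08, adjusted p = 0.00567) in a list of 8 with 1 higher and 2 lower. It had -0.36 without wild-type replicate 1, and the list 1 higher and 3 lower. The 4 complex II assembly factors had adjusted p values of 0.643 to 0.933, with a median difference of 0.0352. Complex IV assembly had 2 of 21 tested genes higher and 3 lower, and 3 higher and 2 lower without wild-type replicate 1. Complex V assembly and its inhibitor had 3 of 5 lower (Tmem70, Atpif1 and Usmg5), and 1 of 5 without wild-type replicate 1. Of 14 tested regulators of mitochondrial biogenesis, 2 were higher (Yy1 and Polg) and 2 lower (Pprc1 and Tfb1m). Without wild-type replicate 1, 2 were higher (Yy1 and Ppargc1a) and 1 lower (Pprc1). Of the 13 mitochondrially encoded subunits 7 could be tested; mt-Cytb was higher (0.25, SE 0.06, adjusted p = 0.00274, edgeR) and none was lower. Without wild-type replicate 1, the library with the most mitochondrially encoded mRNA, 3 were higher (mt-Nd4, mt-Nd5 and mt-Cytb, the last at 0.38) and none lower. Over all genes the shares called were 16.2% higher and 19.9% lower, or 17.5% and 18.7% without that library.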

How the data were processed

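Gene and PROMPT read counts are those the authors deposited, whole numbers per library with no normalisation. The submitters' processing notes name FastQC and STAR 2.7.3a. The counter, its strand setting, the genome build and the extent of PROMPT regions are not given in the sources used here; per the labels' protocols the kit was TruSeq Stranded Total RNA. Identifiers were matched to GENCODE M21 on GRCm38 (54573 of 55471 with version, 55230 without it). No column of the tables used lacked a library. The 19-library gene table held the same values as the 20-library one.

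The 20 libraries were fitted together in edgeR 4.0.16 (R 4.3.3) with TMM factors, filterByExpr, the quasi-likelihood test and Benjamini-Hochberg adjustment over all genes tested. PROMPT counts were fitted the same way with library sizes and factors of the gene table. DESeq2 1.42.0 was an alternative. A call is an adjusted p under 0.05; SE is the size of the log2 change divided by the root of F. CPM uses the normalised library size. On simulated data with 200 changed features, 99% of 2-fold and 100% of 4-fold changes were recovered among 14696 genes, with 6.13% of calls false. Among 15999 PROMPT regions 87% and 100% were recovered, with 2.6% false. The simulation gave all features the same spread and all clones the same change, with no library standing apart. Smaller changes were not simulated. These rates therefore check the code and do not carry over to the differences reported here.

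Members and lists were chosen with earlier results of these data known. Named with values were, per complex, the called members with the highest and lowest change, all Sdh genes, isoform partners, the 3 members that differed most among clones, the 3 highest and 2 lowest called PROMPT regions, and the highest and lowest called member of Btbd7 KO. Others, among them Ndufs1, Ndufc2, Uqcrq and Atp5b, were chosen after their values were seen. Alternatives were another scaling, filter, control or tool, the replicate number as a block, a 1.5-fold minimum and leaving out each library. Counts limit precision by counting error, and the counts behind each level follow from library totals of 6833258 to 17771804.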

Additional observations from a re-analysis of the deposited data

Results flagged for a closer look

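Of 180 groups of 4 libraries examined, 10 held a library far from the other 3 by Dixon's criterion, where chance gives about 1 in 20. Wild-type replicate 1 had 5.85 CPM of Atp5g2 (others 12.2 to 13.2) and 35.6 CPM of Ndufa10 (others 61.7 to 66.7). Wild-type replicate 2 had 14.3 CPM of Atp5k (others 3.77 to 5.53). Clone 3 replicate 2 had 13.1 CPM of Atp5k (others 6.12 to 7.05), 119 of Cox6b1 (others 107 to 108) and 20.7 of Cox7a2 (others 14.2 to 14.9). Btbd7 KO replicate 4 had 117 CPM of Cox4i1 (others 105 to 107), and clone 1 replicate 1 had 49.7 of Ndufa10 (others 54.6 to 55.3). Clone 2 replicate 1 had 185 CPM of Sdha (others 203 to 206) and a sum of 60.6 for the assembly factors (others 78.5 to 79.9).

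The joint edgeR test of a difference among the 3 clones passed for 11 of the members described by name, and for 28.5% of all tested genes. Sdha, Atp5a1 and Uqcrfs1 were named because they had the lowest p in this test, so that they passed adds nothing. The adjusted p was 3.36e-07 for Sdha, 6.74e-06 for Atp5a1, 0.000539 for Uqcrfs1, 0.00135 for Atp5g3, 0.00379 for Cox6c and 0.00618 for Cox6a1. It was 0.0181 for Uqcrb, 0.0193 for Cox8a, 0.0251 for Atp5g2, 0.0357 for Ndufa4 and 0.0451 for Atp5f1. Clone 1 was lowest for Sdha, Uqcrfs1, Uqcrb, Ndufa4, Cox6a1, Cox8a and Atp5f1, clone 2 for Atp5a1, and clone 3 for Cox6c, Atp5g2 and Atp5g3 in their estimates.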

How the results depend on the processing

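For the mean of the clones against wild type (2 members higher, 19 lower), higher calls numbered 4 with DESeq2, 4 with library totals alone, 4 with scaling on protein-coding genes, 7 with no filter, 1 with only the groups compared, 1 without clone 2, 0 with a 1.5-fold minimum and 0 with cell lines as replicates. Lower calls numbered 38 with Btbd7 KO as control, 0 with cell lines as replicates and 0 with a 1.5-fold minimum. The fit with cell lines as replicates also changed the control, to wild type and Btbd7 KO together. In clone 1 (1 higher, 21 lower), higher calls were 3 with DESeq2, 3 with library totals alone, 3 with scaling on tested genes, 4 with scaling on protein-coding genes, 4 with no filter and 0 with only the groups compared. Lower calls there were 12 with only the groups compared and 1 with the 1.5-fold minimum. In clone 2 (4 and 13), higher calls were 7 with DESeq2, 7 with library totals alone, 9 with no filter, 0 with only the groups compared and 1 with the 1.5-fold minimum, and lower calls were 7, 6 and 0 with library totals alone, only the groups compared and the 1.5-fold minimum. In clone 3 (1 and 21), higher calls were 3, 4, 0 and 2 with library totals alone, no filter, only the groups compared and scaling on protein-coding genes, and lower calls 12 and 2 with only the groups compared and the 1.5-fold minimum. In Btbd7 KO (4 and 1), higher calls were 15, 1 and 0 with no filter, only the groups compared and the 1.5-fold minimum, and lower calls 2 and 0 with no filter and that minimum. Lower PROMPT regions numbered 13 in place of 5 with scaling within the PROMPT table, and 2 in place of 1 in Btbd7 KO with library totals alone, DESeq2, a mean of at least 10 counts or factors from 20 libraries. The cause of these shifts was not tested, apart from the fewer libraries or the added minimum that some settings have by construction.

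Leaving out 1 library at a time gave 1 to 10 members higher and 17 to 30 lower for the mean, 0 to 5 and 15 to 31 in clone 1, 3 to 10 and 8 to 15 in clone 2, 1 to 7 and 17 to 25 in clone 3, 1 to 21 and 1 to 2 in Btbd7 KO, and 13 to 27 differing among clones. PROMPT calls were 31 to 36 higher and 3 to 6 lower, and in Btbd7 KO 0 higher and 0 to 2 lower. Leaving out a library turned the sign of some small log2 differences, which ranged from -0.11 to 0.73 for Atp5k, -0.0201 to 0.0287 for Cox4i1, -0.29 to 1.04 for Cox7a1, -0.41 to 0.15 for Cox7a2, -0.0036 to 0.0888 for Cox7a2l, -0.23 to 0.0119 for Ndufa10, -0.0186 to 0.0259 for Sdhd and -0.17 to 0.17 for Uqcr10.

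With Btbd7 KO as control the sign turned for Atp5k (-0.0805), Cox4i1 (-0.1493), Cox6a1 (-0.1574), Cox8a (-0.0821) and Uqcr10 (-0.4664). With cell lines as replicates, where wild type and Btbd7 KO together were the control, it turned for Cox4i1 (-0.0914) and Uqcr10 (-0.2717). Without clone 2 it turned for Atp5k (-0.0148) and Cox4i1 (-0.0029), and without clone 1 for Cox7a1 (-0.0654), Cox7a2l (-0.0281) and Sdhd (0.0328). Ndufa10 was 0.0018 with library totals alone. Sdhd was 0.0231 with DESeq2, 0.0691 with library totals alone, 0.0103 with only the groups compared, 0.0136 with scaling on tested genes, 0.041 with scaling on protein-coding genes and 0.0103 without clone 3.

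Same-numbered libraries did not deviate together (40 pairs, correlations of -0.056 to 0.088, 0 over 0.1), and 3 of 20 libraries correlated best with their own number. With the replicate block the mean had 3 members higher and 20 lower, and clone 1 had 3 higher. Of the single-gene values under other settings, 946 kept direction and call, 59 lost the call, 24 gained it and 44 changed sign. PROMPT regions with few counts, such as Ndufs5, are limited by depth.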
